A study of Mus musculus with 8 samples.

Results

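The genes described here build the interstitial matrix through which neural crest cells move: versican (Vcan), the hyaluronan synthase Has2, the link protein Hapln1, Cthrc1, decorin (Dcn), lumican (Lum), fibronectin (Fn1), Ccdc80, fibulin-1 (Fbln1) and matrilin-2 (Matn2). They were measured in cultured sacral neural crest cells of mouse embryos that were wild type or carried 2 copies of the mutant Dom allele of Sox10 (Dom/Dom). The 10 genes were taken by symbol from 6855 genes tested, and each of the 10 had 1 probe set. The genes were chosen by their matrix role and by their levels and Dom/Dom minus wild-type differences on these arrays, so these values are a description and no test is read from them.

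The study used 8 arrays, 4 per genotype, numbered as replicates 1 to 4 in each. Sox10 encodes a transcription factor of the neural crest, and the Dom mutation shifts its reading frame. Neural tube caudal to somite 24 was cut from embryonic day 9.5 embryos and kept in medium with 10% serum for 24 hours, and RNA came from the cells that had crawled out of the explant, so each sample is a mixed outgrowth and not a sorted population. The labels name no strain, litter or number of embryos, and do not say whether replicates were separate cultures; p-values therefore rest on the spread among these arrays, part of which may be technical. The controls carry no other allele or agent by the labels.

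Hyaluronan is a long sugar chain that Has2 spins out of the cell surface. Versican, a large proteoglycan decorated with chondroitin sulphate, binds that chain at one end, and Hapln1 clamps the bond between them. Fibronectin and the fibulins form fibrils and links to cell receptors, while decorin and lumican are small leucine-rich proteoglycans that sit on collagen fibrils. Neural crest cells migrate through a matrix rich in fibronectin and hyaluronan, and versican is known to border or limit their routes.

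Vcan and Hapln1 lie next to each other on chromosome 13 on opposite strands, and they are the neighbouring members whose genotype differences ran in opposite directions. The 250 bases before the annotated start of each are therefore shown, 5′ to 3′ on the gene's own strand, from RefSeq's table of assembly GRCm38.p6, which held 3 of the 10 genes. Vcan's stretch is chr13:89742513-89742762 on the minus strand and that of Hapln1 is chr13:89540386-89540635 on the plus strand. Capitals mark the GC box GGGCGG, searched on both strands.

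Vcan: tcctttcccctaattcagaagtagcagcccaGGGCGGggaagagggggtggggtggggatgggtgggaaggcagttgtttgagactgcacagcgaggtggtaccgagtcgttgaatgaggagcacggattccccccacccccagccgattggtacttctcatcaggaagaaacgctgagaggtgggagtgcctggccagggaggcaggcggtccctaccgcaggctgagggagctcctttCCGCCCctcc
Hapln1: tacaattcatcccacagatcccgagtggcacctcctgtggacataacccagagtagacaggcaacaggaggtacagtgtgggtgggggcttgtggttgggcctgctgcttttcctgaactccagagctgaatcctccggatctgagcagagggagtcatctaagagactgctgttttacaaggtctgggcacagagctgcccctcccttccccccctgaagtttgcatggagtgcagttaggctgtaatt

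The Vcan stretch held 2 GC boxes, which began 219 and 10 bases before the start, the second on the opposite strand, and the Hapln1 stretch held 0. A GC box was present in 32.7% of 32851 such stretches in the table. The Vcan stretch was 62.4% G and C with 10 CG pairs, and the Hapln1 stretch 54.4% with 2, against medians of 52.4% and 6 over the table. The SOX core hexamers ACAAAG and ACAATG, searched on both strands, and the TATA sequence TATAAA were in neither. One or both of the SOX hexamers were in 25.2% of the table's stretches, and TATAAA in 12.4%. These are matches of letters in a short window and say nothing about where a factor binds.

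Versican, its hyaluronan synthase and Cthrc1 stood lower in Dom/Dom cultures, and Ccdc80 and Hapln1 stood higher. Fn1 and Fbln1 lay within 0.09 log2 units of wild type on average, and Dcn and Lum varied more between arrays than between genotypes. Of the 10 genes, 5 had a mean difference below 0 and 5 above. The median of their absolute differences was 0.40 log2 units, against 0.06 over all genes tested. Values are log2 expression levels of each probe set, and they set no gene's level against another's. In cultures of mixed cells, fewer cells that express a gene and less RNA per cell cannot be told apart.

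**Figure D1:**
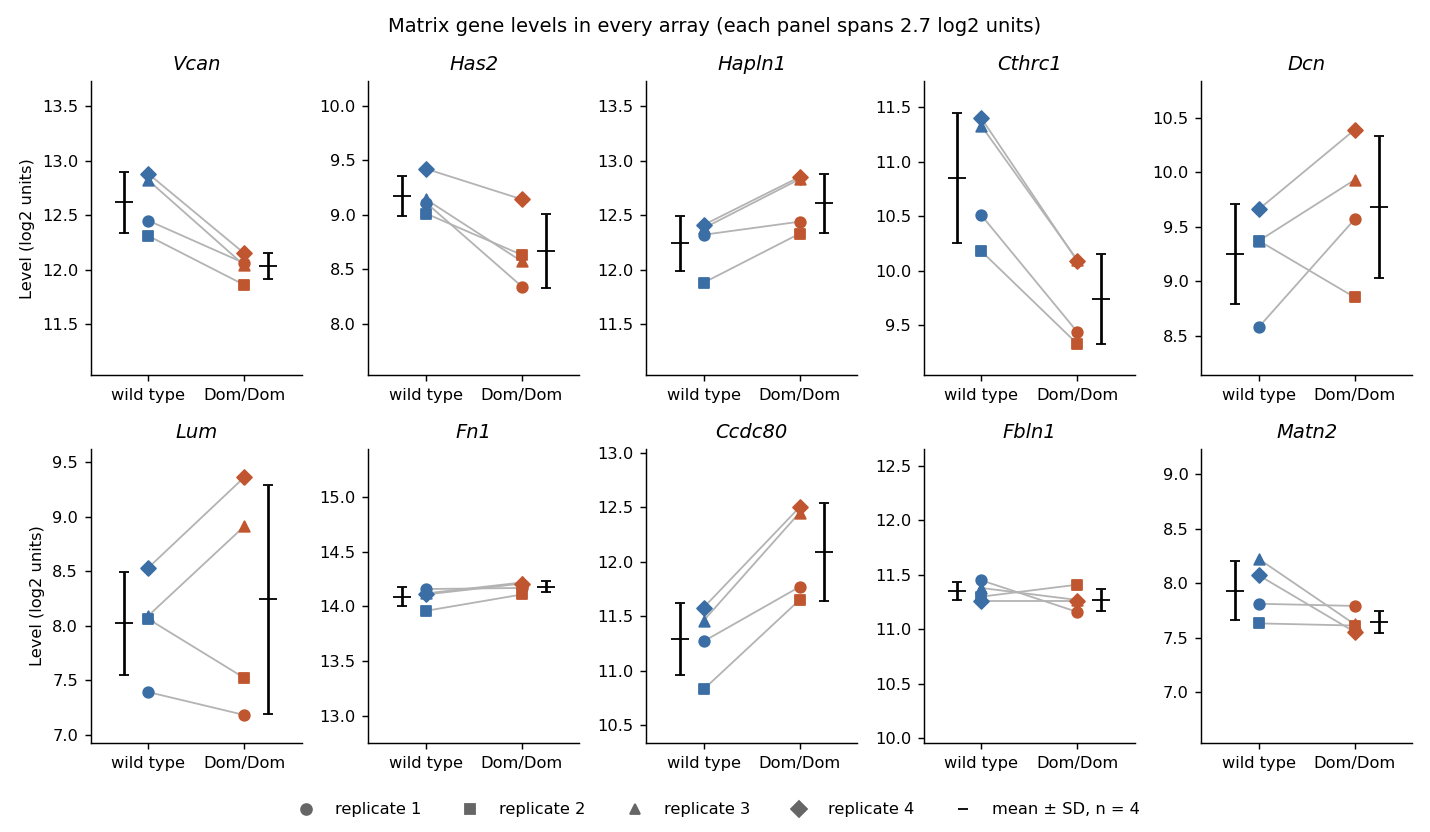
Level of each of the 10 matrix genes in log2 units (vertical axis, each panel spanning the same height) in the 4 wild-type and 4 Dom/Dom arrays. Grey lines join arrays of the same replicate number and bars give the mean and SD of 4 arrays. The groups do not overlap for Vcan, Cthrc1 and Ccdc80.

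The Vcan level was 12.45, 12.31, 12.82 and 12.88 in wild-type replicates 1 to 4 and 12.06, 11.86, 12.04 and 12.15 in Dom/Dom replicates 1 to 4. Every Dom/Dom array was below every wild-type array. The wild-type mean was 12.62 ± 0.28 and the Dom/Dom mean 12.03 ± 0.12 (SD, n = 4), a 1.50-fold difference. Within replicate numbers 1 to 4 the differences, Dom/Dom minus wild type, were -0.38, -0.45, -0.79 and -0.73. The gap was wider in replicates 3 and 4, where the wild-type level was higher, while the Dom/Dom level stayed in a narrow band.

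Has2, the enzyme that makes most of the embryo's hyaluronan, was read at 9.11, 9.01, 9.14 and 9.42 in the wild-type arrays and at 8.34, 8.63, 8.57 and 9.14 in the Dom/Dom arrays. Dom/Dom replicate 4 was as high as the middle of the wild-type arrays, so the groups overlapped, while the other 3 Dom/Dom arrays lay below all of wild type. The means were 8.67 ± 0.34 for Dom/Dom and 9.17 ± 0.18 for wild type (SD, n = 4), a 1.41-fold difference, and the 4 same-numbered differences were -0.77, -0.38, -0.56 and -0.29. The genes on either side of Has2 on chromosome 15 were Sntb1 and Slc22a22. Sntb1 encodes a syntrophin of the dystrophin complex. Its level was 11.40 ± 0.25 in wild type and 10.80 ± 0.18 in Dom/Dom (SD, n = 4). Its adjusted p was 0.108 by limma and 0.0957 blocked by replicate number. The Slc22a22 level was 5.77 ± 0.05 in wild type and 5.72 ± 0.08 in Dom/Dom (SD, n = 4), a difference of -0.05.

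Hapln1 ran the other way from the proteoglycan it fastens to hyaluronan. Its level was 12.32, 11.88, 12.38 and 12.41 in wild type and 12.44, 12.33, 12.83 and 12.85 in Dom/Dom, in the order of replicates 1 to 4. The groups overlapped because Dom/Dom replicate 2 lay below 2 of the wild-type arrays, although each Dom/Dom array was above the wild-type array of its number. Means were 12.61 ± 0.27 for Dom/Dom and 12.24 ± 0.25 for wild type (SD, n = 4), and the same-numbered differences 0.12, 0.45, 0.45 and 0.45. Wild-type replicate 2 was far below the other 3 wild-type arrays, and without it the mean difference was 0.24 in place of 0.37. On the outer sides of this pair of genes, Edil3 differed by -0.13 and the DNA repair gene Xrcc4 by 0.04 (limma adjusted p = 1.00 each).

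Cthrc1, a secreted glycoprotein with a short collagen-like stretch that is known as a modifier of Wnt signalling, had the largest difference of the 10. It was read at 10.51, 10.18, 11.33 and 11.40 in wild type and at 9.44, 9.33, 10.10 and 10.09 in Dom/Dom. Replicates 3 and 4 were high in both genotypes, and still no Dom/Dom array reached the lowest wild-type array. The means of 9.74 ± 0.41 for Dom/Dom and 10.85 ± 0.60 for wild type (SD, n = 4) were 2.16-fold apart. The same-numbered differences of -1.07, -0.85, -1.22 and -1.31 had an SD of 0.20, against an SD of 0.52 for levels within a genotype. The genes on either side, the Wnt receptor gene Fzd6 and the folate carrier gene Slc25a32, differed by 0.08 and 0.03 (limma adjusted p = 1.00 each).

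Ccdc80, a secreted protein that binds matrix components, was the mirror image. Its levels were 11.27, 10.83, 11.46 and 11.58 in wild type and 11.77, 11.65, 12.45 and 12.50 in Dom/Dom. All 4 Dom/Dom arrays lay above all 4 wild-type arrays, though replicate 2 of Dom/Dom cleared the highest of them by little. The means were 12.09 ± 0.45 for Dom/Dom and 11.29 ± 0.33 for wild type (SD, n = 4), a 1.75-fold difference, with same-numbered differences of 0.50, 0.82, 0.99 and 0.92.

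**Figure D2:**
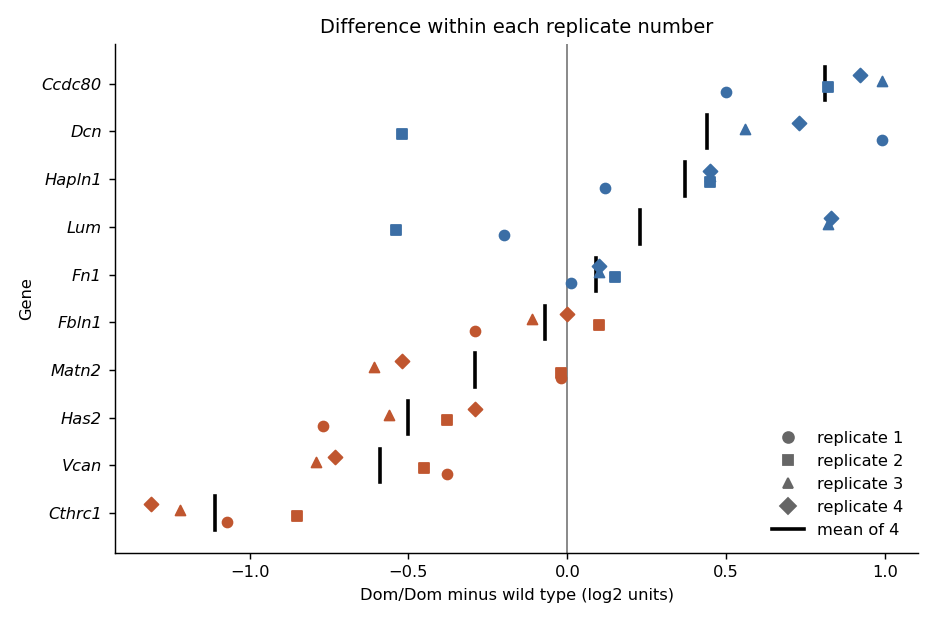
Difference between the Dom/Dom and the wild-type array of the same replicate number (horizontal axis, log2 units) for each of the 10 genes, with a black bar at the mean of 4. Cthrc1, Vcan, Has2 and Matn2 lie below 0 in all 4 and Ccdc80, Hapln1 and Fn1 above 0 in all 4, while Dcn, Lum and Fbln1 fall on both sides. For Matn2 the differences of replicates 1 and 2 are -0.02 each.

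Decorin and lumican, encoded side by side on chromosome 10, were the least steady of the 10. Dcn was read at 8.58, 9.37, 9.37 and 9.66 in wild type and at 9.57, 8.85, 9.93 and 10.39 in Dom/Dom. Dom/Dom was higher in replicates 1, 3 and 4, by 0.99, 0.56 and 0.73, and lower in replicate 2, where the difference was -0.52. Lum was read at 7.39, 8.06, 8.09 and 8.53 in wild type and at 7.18, 7.52, 8.91 and 9.36 in Dom/Dom, so that Dom/Dom held both the lowest and the highest arrays. Its same-numbered differences were -0.20 and -0.54 in replicates 1 and 2 and 0.82 and 0.83 in replicates 3 and 4. Mean levels were 9.68 ± 0.65 and 9.25 ± 0.46 for Dcn and 8.24 ± 1.05 and 8.02 ± 0.47 for Lum (Dom/Dom and wild type, SD, n = 4). The mean Dcn difference of 0.44 was 0.20 without Dom/Dom replicate 4, 0.22 without wild-type replicate 1 and 0.72 without Dom/Dom replicate 2. With arrays left out singly, that of Lum, 0.23, was 0.02 without wild-type replicate 1, 0.58 and 0.47 without Dom/Dom replicates 1 and 2, 0.40 without wild-type replicate 4, and without Dom/Dom replicates 3 and 4 it was 0.00 and -0.14. Kera, the keratocan gene on the other side of Lum, differed by -0.12 (limma adjusted p = 1.00).

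Fibronectin, the main adhesive protein of the crest's path, hardly varied. Fn1 lay at 14.16, 13.96, 14.12 and 14.11 in wild type and at 14.17, 14.11, 14.22 and 14.21 in Dom/Dom, the groups overlapping, with means of 14.09 ± 0.09 for wild type and 14.18 ± 0.05 for Dom/Dom (SD, n = 4). Fbln1, a calcium-binding glycoprotein that attaches to fibronectin and to versican, was read at 11.45, 11.30, 11.38 and 11.26 in wild type and 11.16, 11.41, 11.27 and 11.26 in Dom/Dom. Its groups overlapped, and the same-numbered differences of -0.29, 0.10, -0.11 and 0.00 had no common direction.

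Matn2, an adaptor protein of filamentous networks, differed in 2 of 4 replicate numbers. It was read at 7.81, 7.63, 8.22 and 8.07 in wild type and at 7.79, 7.61, 7.62 and 7.55 in Dom/Dom. In replicates 1 and 2 the genotypes were level, with differences of -0.02 and -0.02, and in replicates 3 and 4 Dom/Dom was lower, by differences of -0.61 and -0.52. The means of 7.64 ± 0.10 for Dom/Dom and 7.93 ± 0.27 for wild type (SD, n = 4) blend these, and without wild-type replicate 3 the mean difference of -0.29 was -0.19. It was the 1 gene of the 10 removed by a filter on the dimmest 25% of genes, and RMA compresses differences of dim probe sets.

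By the limma fit over all genes with Benjamini-Hochberg adjustment, 0 of the 10 genes passed an adjusted p of 0.05, where 0.481% of all genes did, and 6 of 10 had an unadjusted p below 0.05, where 6.11% did. With the replicate number as a block, 3 were called lower, Vcan, Has2 and Cthrc1, where 1.05% of all genes were, and 1 higher, Ccdc80, where 0.452% were. The groups did not overlap for 2 genes that were lower, against 2.60% of all genes, and for 1 that was higher, against 1.18%. Dom/Dom was lower in 4 of 4 replicate numbers for 4 genes and higher in 4 of 4 for 3, against 10.7% and 10.4% of all genes. Since the genes were chosen with this contrast known, nothing is read from these counts.

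The genes differed among themselves in how much of their spread followed the replicate number. The median SD of levels within a genotype was 0.26 log2 units for the 10 genes and 0.15 over all genes. Lum and Dcn, with 0.82 and 0.56, stood above 99.9% and 99.7% of all genes in this spread, and Cthrc1, with 0.52, above 99.4%. Fn1 and Fbln1, with 0.07 and 0.09, stood above 6.5% and 16.7%. For arrays that vary independently, the SD of the same-numbered differences is 1.41 times the SD of levels. It was below that in 8 of the 10 genes, as in 84.6% of all genes, with a median ratio of 0.87 over all genes. The ratio was 0.39 for Cthrc1, 0.55 for Ccdc80, 0.63 for Hapln1, 0.86 for Lum and 1.17 for Dcn, and it was above 1.41 for Matn2 (1.56) and Fbln1 (1.80). Lum therefore also varied together in arrays of the same number, although its differences kept an SD of 0.70, close to the 0.66 of Dcn.

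**Figure D3:**
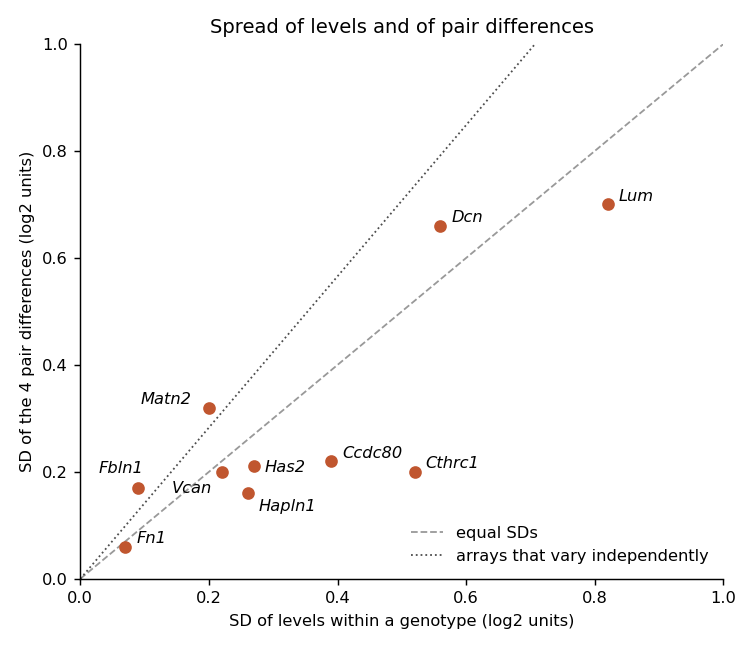
SD of the 4 same-numbered differences (vertical axis) against the SD of levels within a genotype (horizontal axis), both in log2 units, for the 10 genes. The dashed line marks equal values and the dotted line a ratio of 1.41, that of arrays that vary independently. Cthrc1, at 0.52 and 0.20, has the lowest ratio, and Matn2 and Fbln1 lie above the dotted line.

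The genes with the most similar profiles over the 8 arrays were found by the smallest root-mean-square distance between profiles centred on each gene's mean. For Vcan, whose own profile varied by 0.349 log2 units on this measure, they were Stx7, Fbxo32 and Mlph at distances of 0.104, 0.107 and 0.108. For Cthrc1 (0.715) they were Grik2, Il1rap and Kcnk5 at 0.187, 0.220 and 0.234. Ccdc80 (0.527) was followed most closely by Inhba, Lifr and Myocd at 0.110, 0.115 and 0.125, and Hapln1 (0.289) by Plk2, Flrt2 and F11r at 0.049, 0.058 and 0.069. The nearest of the other 9 matrix genes were Matn2 at 0.188 from Vcan, Vcan at 0.389 from Cthrc1, Hapln1 at 0.254 from Ccdc80 and Fn1 at 0.221 from Hapln1. These distances were larger, but each matrix gene was the closest of 9, while the genes named first were the closest of all 6855 genes tested. A larger distance was thus close to certain beforehand, and it does not show that the matrix genes were unlike each other. Has2 (0.341) was nearest to Cnrip1, Slc16a7 and Ppp1r13b at 0.118, 0.127 and 0.136. Matn2 (0.228) was nearest to Pik3ip1, Kif3c and Hhla1 at 0.080, 0.097 and 0.103. The profiles of Fn1 and Fbln1 were too flat for such a comparison to separate genes. All 8 arrays enter each distance, so genes that share a genotype difference or a replicate pattern come out as alike.

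Other genes of the interstitial matrix were drawn from 8 lists by role, which hold none of the 10 genes; 53 of 138 listed genes were measured. Of these 53, 1 fell by the limma fit, against 0.408% of all genes, and 0 rose, against 0.0729%. With the replicate number as a block 2 fell and 2 rose, against 1.05% and 0.452% of all genes, or 1.50% together. Their median difference was -0.0005, against -0.0009 over all genes. At an unadjusted p of 0.05, 14 of 53 passed, against 6.11% of all genes. The lists were written with earlier results of these data known, so nothing is read from these shares.

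The gene that fell was Chst3, a sulphotransferase that adds sulphate to the chondroitin chains carried by proteoglycans such as versican. Its level was 9.09, 9.12, 8.96 and 8.92 in wild type and 8.37, 8.60, 8.08 and 8.11 in Dom/Dom, with every Dom/Dom array below every wild-type array. It fell 1.66-fold, a difference of -0.73 (standard error 0.12; adjusted p = 0.0291 by limma, 0.00744 when blocked), and it was lower in 4 of 4 replicate numbers. The call held in 2 of 8 fits without 1 array, those without Dom/Dom replicates 1 or 2; in the other 6 the adjusted p lay between 0.0558 and 0.111. Adjusted over all probe sets it was 0.205.

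The other 9 measured genes of chondroitin and dermatan sulphate synthesis did not pass, with or without the block. Groups did not overlap for 4 of the 10 genes of this list, 3 lower and 1 higher, where 2.60% and 1.18% of all genes had such groups. Beside Chst3 these were, named after their values were seen, the chondroitin 4-sulphotransferase Chst11 (10.47 ± 0.22 against 10.83 ± 0.11), the linker enzyme B4galt7 (9.07 ± 0.05 against 9.29 ± 0.10) and the uronyl sulphotransferase Ust (10.59 ± 0.15 against 10.34 ± 0.06; Dom/Dom against wild type, SD, n = 4). Their limma adjusted p were 0.372, 0.472 and 0.539.

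Among 11 other matrix glycoproteins, 0 passed without the block; with it 1 fell and 2 rose. Egflam (pikachurin), a ligand of dystroglycan, was read at 9.13, 9.22, 9.35 and 9.62 in wild type and 8.23, 8.66, 8.62 and 8.82 in Dom/Dom, with no overlap. Its difference was -0.75 (standard error 0.14; adjusted p = 0.0512 by limma, 0.00584 when blocked). Tgfbi, which links collagens to integrins, differed by 0.53 (adjusted p = 0.619; 0.0164 with the block) and was higher in 4 of 4 replicate numbers, though its groups overlapped. Without wild-type replicate 2 its difference was 0.35 (limma adjusted p = 0.889). Ccn4, a matricellular protein induced by Wnt signalling, differed by 0.52 (limma adjusted p = 0.188, and 0.0410 with the block). It was higher in 4 of 4, though its groups overlapped too.

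**Figure D4:**
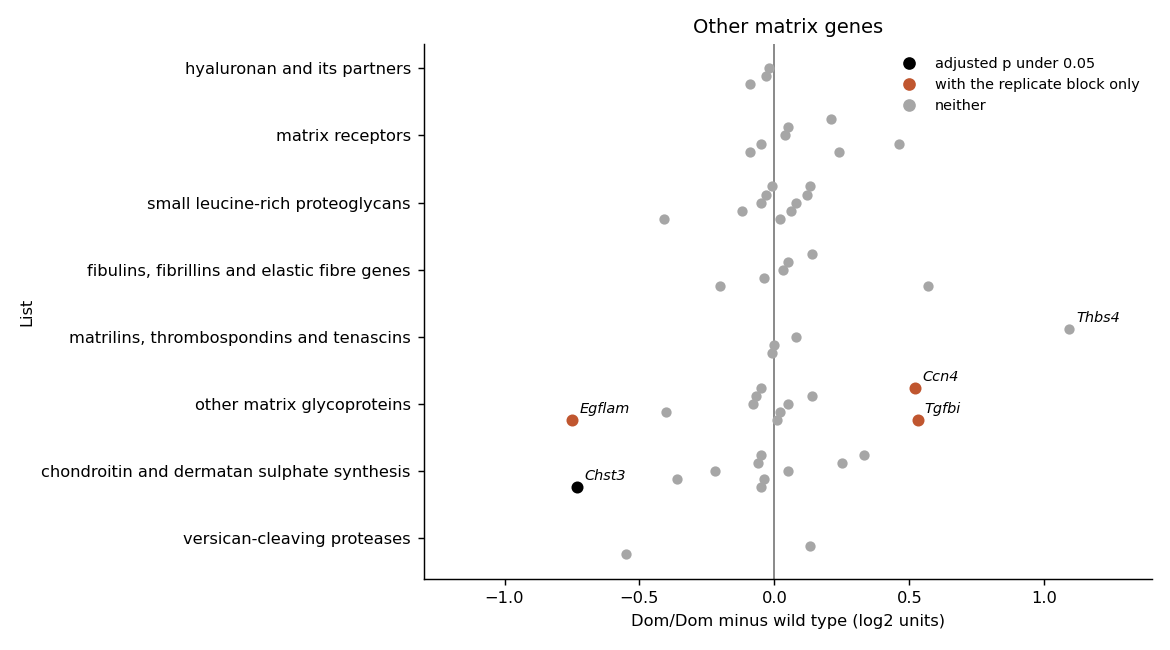
Difference between genotypes (horizontal axis, log2 units, Dom/Dom minus wild type) of 53 measured matrix genes in 8 lists, 1 point per gene; vertical position within a list has no meaning. Chst3 alone passed the adjusted threshold without the block, and Egflam, Tgfbi and Ccn4 passed with it.

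In the other 6 lists 0 genes passed with limma, with or without the block; at an unadjusted p of 0.05, 1 gene did in each of 5 of them and 0 did among hyaluronan's partners. The widest difference was that of Thbs4, a thrombospondin of tendon and muscle attachments, with levels of 8.44, 8.18, 8.40 and 8.22 in wild type and 8.99, 8.75, 9.84 and 9.99 in Dom/Dom. Its groups did not overlap, and the difference of 1.09 was carried most by replicates 3 and 4 (limma adjusted p = 0.118; 0.0702 with the block). Adamts4, a protease that cuts versican and aggrecan, had a wild-type level of 9.35 ± 0.10 and a Dom/Dom level of 8.80 ± 0.25 (SD, n = 4; adjusted p = 0.105; 0.104 with the block), and Adamts20, the other measured versican-cleaving protease, levels of 8.52 ± 0.26 and 8.65 ± 0.36 in the same order. Of 7 receptors, the heparan sulphate proteoglycan Sdc2 differed by 0.46 (adjusted p = 0.403; 0.0544 with the block) and the fibronectin receptor subunit Itga5 by 0.24 (adjusted p = 0.933). Itga5 was lower in replicate 1 (-0.24) and higher in replicates 2 to 4 (0.36, 0.43 and 0.43), and without wild-type replicate 1 its difference was 0.37 (limma adjusted p = 0.118).

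Of 10 measured relatives of decorin and lumican, the small leucine-rich proteoglycans, the largest differences were those of Prelp (-0.41, lower in 4 of 4 replicate numbers, limma adjusted p = 0.467) and Fmod (0.13, adjusted p = 1.00). Among 6 genes of fibulins and elastic fibres they were those of Efemp1 (0.57, adjusted p = 0.457) and Mfap4 (-0.20, adjusted p = 1.00). Tnn, a tenascin, differed by 0.08. Of the hyaluronan list only 3 inter-alpha-trypsin inhibitor chains were measured, and the largest differences were those of Itih4 (-0.09) and Itih3 (-0.03). Other hyaluronan synthases, link proteins and hyaluronidases were not analysed here.

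The cultures were checked against marker lists. Of 10 neural tube markers 0 were measured, so cells of the explanted neural tube itself could not be checked. Of 15 neural crest markers 9 were measured, and their mean level was 11.35 to 11.55 in Dom/Dom and 11.85 to 12.19 in wild type. Of the 9, 6 were below 0, where the median difference over all genes was -0.0009. Sox10 and Erbb3 were called lower, where 0.408% of all genes were. With the replicate block 3 were, Tfap2a in addition, where 1.05% of all genes were. Sox10 itself differed by -1.20 (limma adjusted p = 0.0168; 0.0312 with the block); since the mutant transcript is still produced, this value is no check of the labels. Among the other markers Ngfr, Ednrb, Tfap2a and Snai2 differed by -0.95, -0.92, -0.50 and -0.19, Erbb3 by -1.57, and Pax3, Tfap2b and Sox9 by 0.05, 0.02 and 0.09. The files carry no detection calls, so whether a marker was absent could not be read.

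Beside Ccdc80 and Hapln1, which stood higher in Dom/Dom, markers of mesoderm and fibroblasts (13 of 21 measured) were above 0 in 10 of 13, with a mean level of 9.19 to 9.45 in Dom/Dom and 8.98 to 9.24 in wild type. The 8.98 was wild-type replicate 2. The other wild-type arrays lay at 9.20 to 9.24, above Dom/Dom replicate 1 at 9.19. Among these 13 markers 0 were called without the block, and 1 rose with it, Prrx1, where 0.452% of all genes rose. The 3 smooth muscle markers measured (of 9) lay above 0, with a mean level of 9.65 to 9.84 in Dom/Dom against 9.25 to 9.51 in wild type, the order of the ranges that follow too, and 0 called. Beside the genes that stood lower, epithelial markers (9 of 13 measured) were below 0 in 8 of 9, at 9.42 to 9.76 against 9.61 to 9.91, and neuronal markers (5 of 12 measured) in 5 of 5, at 10.03 to 10.48 against 10.37 to 10.94. In each of these lists 0 were called without the block and 1 fell with it, where 1.05% of all genes fell. The 4 blood and macrophage markers (of 11) had a mean level of 8.75 to 9.31 against 8.93 to 9.45, and Pecam1, the 1 endothelial marker measured of 9, 8.05 to 8.31 against 8.01 to 8.36. Their part in the differences of the matrix genes was not tested.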

How the data were processed

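The deposited table gives log2 expression of probe sets on Affymetrix Mouse Gene 1.0 ST arrays. RMA and Partek are named per the submitters' processing notes; the sources used here give no versions. RMA normalises between arrays and compresses differences of dim probe sets. Labelled probe was made from 250 ng of RNA per the labels' protocols. Precision is limited by the number of arrays.

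The table held 16381 probe sets, part of the array: 7416 had 1 gene symbol, 509 several and 8456 none. This part was uneven over the chromosomes, and all 53 measured genes of the matrix lists lay on chromosomes 1 and 10 to 15. Shares of all genes refer to the genes tested in this part. The brightest probe set stood for each of 6855 genes, of which 6829 identifiers matched RefSeq. Array medians lay between 8.60 and 8.78, correlations of levels between arrays between 0.985 and 0.998, and 0 arrays were identical.

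The genotype comparison used limma 3.58.1 in R 4.3.3 (lmFit, eBayes, two-sided, all 8 arrays), adjusted by Benjamini-Hochberg over 6855 genes. The fit without the replicate block was also run on simulated arrays that varied independently. The blocked fit was not run on simulated data. The members and lists were chosen with earlier results of these data known. Named genes were the 10 members, Sox10, matrix genes past the threshold with or without the block or else the 2 largest differences of a list, genes next to a member, the 3 most alike profiles and up to 3 markers a list; Chst11, B4galt7, Ust and further markers were named after their values were seen. Same-numbered arrays deviated together from their genotype means (correlations of 0.47, 0.58, 0.61 and 0.67, each above 0.1). The highest correlations of Dom/Dom replicates 1 to 4 with a wild-type array of another number were 0.11, 0.14, 0.38 and 0.21. These were lower each time but also above 0.1, so that limit alone did not single out the pairs. The numbers were taken as pairs, a choice the labels do not state. The fit without the block was the main one, and calls with the block are given beside it. Alternatives were that block, each array left out, median centring, quantile normalization, the mean of all probe sets, a filter on dim genes, array weights and all probe sets.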

Additional observations from a re-analysis of the deposited data

Results flagged for a closer look

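A search within each genotype for 1 array far from the other 3 covered the 10 matrix genes, the other matrix genes named, Sox10 and the means of marker lists. Of 66 such sets of 4 arrays 3 held one, where chance gives about 1 in 20, or 3.3. All 3 were low values of wild-type replicate 2. Hapln1 stood at 11.88 there, against 12.32 to 12.41 in the other wild-type arrays. The mean of the mesoderm and fibroblast markers was 8.98, against 9.20 to 9.24, and that of the smooth muscle markers 9.25, against 9.48 to 9.51.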

How the results depend on the processing

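Across 13 alternatives each of 9 of the 10 matrix genes kept the sign of its difference, Vcan between -0.71 and -0.50 and Cthrc1 between -1.34 and -0.93, while Lum kept it in 11. The replicate block and the mean of all probe sets could not change these differences. The pairs were complete, and each of the 10 genes had 1 probe set. The count of genes below 0 was 5 to 6. Genes called over the whole table numbered 33 and ran from 10 to 51 without 1 array, with the lowest counts without wild-type replicates 3 or 4 (10 each) or Dom/Dom replicates 3 or 4 (11 and 12) and the highest without wild-type replicate 2. They numbered 103 with the replicate block, 190 with array weights and 4 over all probe sets. Other matrix genes called numbered 1 and ran from 0 to 3 without 1 array: 2 and 3 without Dom/Dom replicates 1 and 2, and 0 without any of wild-type replicates 2 to 4 or of Dom/Dom replicates 3 and 4. They numbered 4 with the replicate block, 2 with median centring, quantile normalization or a filter on the dimmest 25% of genes, 9 with array weights and 0 over all probe sets. Centring moved the median of all genes to -0.062. Of the 10 genes 4 were called with the block, 3 with array weights and 1 without wild-type replicate 2. The cause of these shifts was not tested.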

Other observations

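The 3 profiles most like that of Dcn and the 3 most like that of Lum were all probe sets of small RNA genes, which made up 2.26% of the genes tested (155 genes). For Dcn they were Mir10a, Mir181b-1 and Mir379 at root-mean-square distances of 0.205, 0.223 and 0.232 log2 units, where Dcn itself varied by 0.535. For Lum they were Mirlet7f-1, Snord58b and the predicted microRNA gene Gm24148 at 0.189, 0.235 and 0.277, where Lum varied by 0.717. Among the 24 most alike profiles of the other 8 matrix genes 0 were small RNA genes. Those 8 include Fn1 and Fbln1, whose profiles were too flat for this comparison. The distance is not scaled by spread, so a gene with a wide spread can come near only to genes that also vary widely. The median SD within a genotype was 0.20 for small RNA genes and 0.15 over all genes. The nearest of the 10 matrix genes to Lum was its neighbour Dcn, at 0.415. The median level of all small RNA genes was 8.04, 7.78, 7.93 and 8.04 in Dom/Dom replicates 1 to 4 and 7.81, 7.86, 7.74 and 7.80 in wild type. Whether these probe sets and the 2 proteoglycan genes share a source of spread was not tested.

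Sox10 lies on chromosome 15, as do 4 of the 10 matrix genes, Has2, Cthrc1, Fbln1 and Matn2. All 4 had a mean difference below 0, that of Fbln1 being -0.07, against 1 of the other 6, Vcan. The genes were chosen with these differences known, so nothing is read from this split. The 746 genes tested on chromosome 15 were 10.9% of all genes tested. Of these 746, 55.6% were below 0, with a median difference of -0.013, against 49.8% of genes on other chromosomes. Called genes made up 0.402% of the 746, against 0.481% of all genes.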
